A study of Mus musculus with 14 samples.

Results

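The genes described here encode the proteins of the cytosolic ribosome. They were taken by name from a table of gene counts from the mouse left ventricle, with the rule that a gene symbol is Rpl or Rps followed by a number and at most one letter (a or l, and x for small subunit genes), one of Rplp0 to Rplp2, or Rpsa. From the 49315 genes listed, 83 matched, and 80 were kept because at least 2 libraries held 10 or more reads. Among the 80, 48 belong to the large and 32 to the small ribosomal subunit. The 3 genes left out were Rpl10l with no read in any library, Rpl39l with 0 to 5 reads and the processed pseudogene Rpl32l with 3 to 8 reads per library.

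Polyadenylated RNA was sequenced from wild-type (WT) mice and from HCN4F mice, which carry a knock-in that exchanges a tyrosine for phenylalanine in the pacemaker channel HCN4 and raises the activity of the channel. Male mice of 10 to 12 weeks underwent Sham surgery or transverse aortic constriction (TAC), a band around the aorta that imposes pressure overload on the left ventricle, and tissue was taken 5 weeks later. Each group described here combines 1 genotype and 1 surgery: WT-Sham, HCN4F-Sham and HCN4F-TAC with n = 4 libraries each, and WT-TAC with n = 2 (replicates 2 and 3). All are left ventricular tissue, and the number of mutant copies is not given in the sources used here. The questions addressed are how TAC changes these genes in each genotype and whether the genotypes differ.

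Ribosomes are built from a small subunit, which reads the mRNA, and a large subunit, which joins amino acids. Ribosomal proteins are made in nearly equal numbers, and many of their mRNAs start with a run of pyrimidines (C and T), the 5-prime terminal oligopyrimidine or TOP motif, through which the kinase complex mTORC1 controls their translation. Cardiac growth under pressure overload is known to require more ribosomes. Striated muscle also has its own version of one large subunit protein, Rpl3l, which takes the place of Rpl3 in heart and skeletal muscle.

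The start sites are shown first, since the TOP motif lies there. The sequences are taken from RefSeq on GRCm38.p6 and run 5-prime to 3-prime, from 20 bases before the annotated start to 10 bases from the start onwards. Capitals mark the unbroken pyrimidine run that covers the start. All 6 genes passed the test after TAC in HCN4F hearts, as described later. The first 5 were picked among those with a run, and Rpl3l because it had the largest fall. RefSeq gives more than 1 start for Rps21, Rpl34, Rpl35a and Rpl3l, and the other starts of the first 3 of these genes have no run of 7 or more bases, nor has the other start of Rpl3l.
Rps27, chr3:90213639-90213668 (minus strand): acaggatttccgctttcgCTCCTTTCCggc
Rps21, chr2:180257359-180257388 (plus strand): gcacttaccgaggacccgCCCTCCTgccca
Rpl35a, chr16:33056462-33056491 (plus strand): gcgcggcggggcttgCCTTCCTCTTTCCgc
Rpl34, chr3:130730328-130730357 (minus strand): ccgCCCCTTCCTTTTCCTCTTCCggggacg
Rps15a, chr7:118116138-118116167 (minus strand): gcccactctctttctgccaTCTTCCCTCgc
Rpl3l, chr17:24727806-24727835 (plus strand): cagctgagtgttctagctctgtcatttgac
The annotated start of Rpl3l is covered by no such run.

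RefSeq promoter entries were found for 58 of the 80 kept members. A pyrimidine run of 7 or more bases over at least 1 annotated start occurred in 19 of the 58 (32.8%), against 6.3% of 10959 other tested genes with an entry. Among members that passed the test after TAC in HCN4F hearts, 7 of 14 with an entry had such a run, and among the others 12 of 44. A second definition took a run of 8 or more bases anywhere from 10 bases before to 30 bases after the start, whether or not it covered the start. The counts were then 6 of 14 and 21 of 44, so that the order of these groups changed with the definition. Such a run occurred in 46.6% of the 58 members and 16.8% of the other tested genes. Annotated starts are not measured starts of transcription in these hearts. Across the whole entry of 300 bases, read on both strands, the letters CAGCTG, an E-box sequence bound by muscle regulatory factors, were found in 3 of the 58 members (5.2%; Rpl3l, Rpl35 and Rpl6) and in 18.3% of the other tested genes. The letters CCGGAAG, the core that ETS factors bind, were found in 41.4% of members and 18.5% of the other tested genes. These matches are descriptions of the letters and do not show binding.

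Between 22309914 and 35210939 reads were counted on genes per library, and 75 of the 80 members held at least 1000 reads in every library. All 80 passed the filter on low counts that left 15292 genes for testing. Levels are given as CPM, read counts scaled to a common library size of 1000000 after TMM scaling in edgeR. The members together took 1.16% to 1.48% of the reads of a library. The HCN4F-Sham libraries were spread widely for these genes, with replicate 1 highest and replicate 3 lowest by the median of the members. Markers of cardiomyocytes summed to 81250 to 108200 CPM in all libraries, and all 12 were detected, as the tissue label implies. Many ribosomal protein genes have near-identical pseudogene copies. Of the 50-base stretches of a member's transcript, a median of 54.1% (0% to 98.7%) also occurred in a transcript of another annotated gene, and how the counting dealt with such reads is not given in the sources used here. Reads counted on 280 named ribosomal protein pseudogenes amounted to 0.345 to 0.450 per 100 reads on the members in each library.

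In WT-Sham hearts the level per transcript length ranged from 0.640 to 727 CPM per kilobase over the 80 members, with a median of 186 CPM per kilobase. The highest was Rplp1 (727 CPM per kilobase), a protein of the stalk that recruits translation factors to the large subunit, followed by the small subunit genes Rps2 (615 CPM per kilobase) and Rps15 (595 CPM per kilobase). The lowest were the processed pseudogene Rpl6l (0.640 CPM per kilobase), Rps20 (24.3 CPM per kilobase) and Rps4l (30.8 CPM per kilobase), a transcribed processed pseudogene. The value of Rps20 was divided by an annotated transcript of 3706 bases, far longer than the other transcripts of its kind, and is a lower estimate for that reason. Replicates differed by a median SD of 0.13 on the log2 scale per member, close to the 0.12 of 628 other genes of similar level. Once the median of all members in a library was subtracted, that spread was 0.06, so that members moved together from library to library, also within a group.

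After TAC in WT hearts 1 of the 80 members passed the test, although nearly all had values below 0. The log2 fold change was below 0 for 79 of 80 members, with a median of -0.24 for the members and -0.02 for all 15292 tested genes. Rps4l fell by 0.59 on the log2 scale (SE 0.15, adjusted p = 0.0333, edgeR), and no member rose. Rps4l is a transcribed processed pseudogene, and 0 of the 78 protein-coding members passed with edgeR, with 47 at an unadjusted p under 0.05. All adjusted p-values (Benjamini-Hochberg over the whole set of tested genes) come from the quasi-likelihood test of edgeR, and SE is the standard error of a log2 fold change. Over all tested genes 4.54% passed, 1.62% with a lower level, so that 1 member of 80 is close to that background. At an unadjusted p under 0.05, 48 of the 80 members were lower and 0 higher, where 10.7% of all tested genes were lower. Both WT-TAC libraries lay below all 4 WT-Sham libraries for 71 of 80 members, which was the case for 20.0% of all tested genes. No member combined an adjusted p under 0.05 with a log2 fold change above 1 or below -1, the threshold of the study, which 0.706% of all tested genes passed. Fitting only WT libraries moved the count of members past the test to 31 of 80 (38.8%), where 13.6% of all genes tested in that fit passed, and DESeq2 on all groups to 6 (7.5%, against 8.01% of all genes). Leaving out HCN4F-Sham replicate 3, which is in no arm of this comparison but shares the estimate of the spread, moved it to 11 (13.8%, against 5.59%). It was 2 without HCN4F-Sham replicate 1 or 2, where 5.93% and 6.64% of all genes passed. It was 0 without WT-Sham replicate 1 or 2, where 1.07% and 2.42% of all genes passed. Leaving out a WT-TAC replicate leaves 1 library in that group. The log2 fold change was then below 0 for 80 members without replicate 2 and for 79 without replicate 3.

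Apart from the pseudogene Rpl6l, which had 8 to 21 reads per library and a log2 fold change of -0.68 (SE 0.39, adjusted p = 0.32, edgeR), the lowest values in WT were those of Rps4l and of Rps29 and Rpsa, both proteins of the small subunit. Rps4l was at 35, 28.6, 27.3 and 25.3 CPM in WT-Sham 1 to 4 and at 19.5 and 19.2 CPM in WT-TAC replicates 2 and 3. Rps29 was at 153, 133, 139 and 153 CPM in WT-Sham and at 108 and 114 CPM in WT-TAC, with a log2 fold change of -0.38 (SE 0.12, adjusted p = 0.0691, edgeR). Rpsa, also known as a precursor of the laminin receptor, was at 366, 326, 322 and 352 CPM in WT-Sham and at 237 and 292 CPM in WT-TAC, with a log2 fold change of -0.37 (SE 0.13, adjusted p = 0.0975, edgeR). For these 3 genes the WT groups did not overlap. The 3 results rest on 2 TAC libraries, which differed from each other most for Rpsa.

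**Figure D1:**
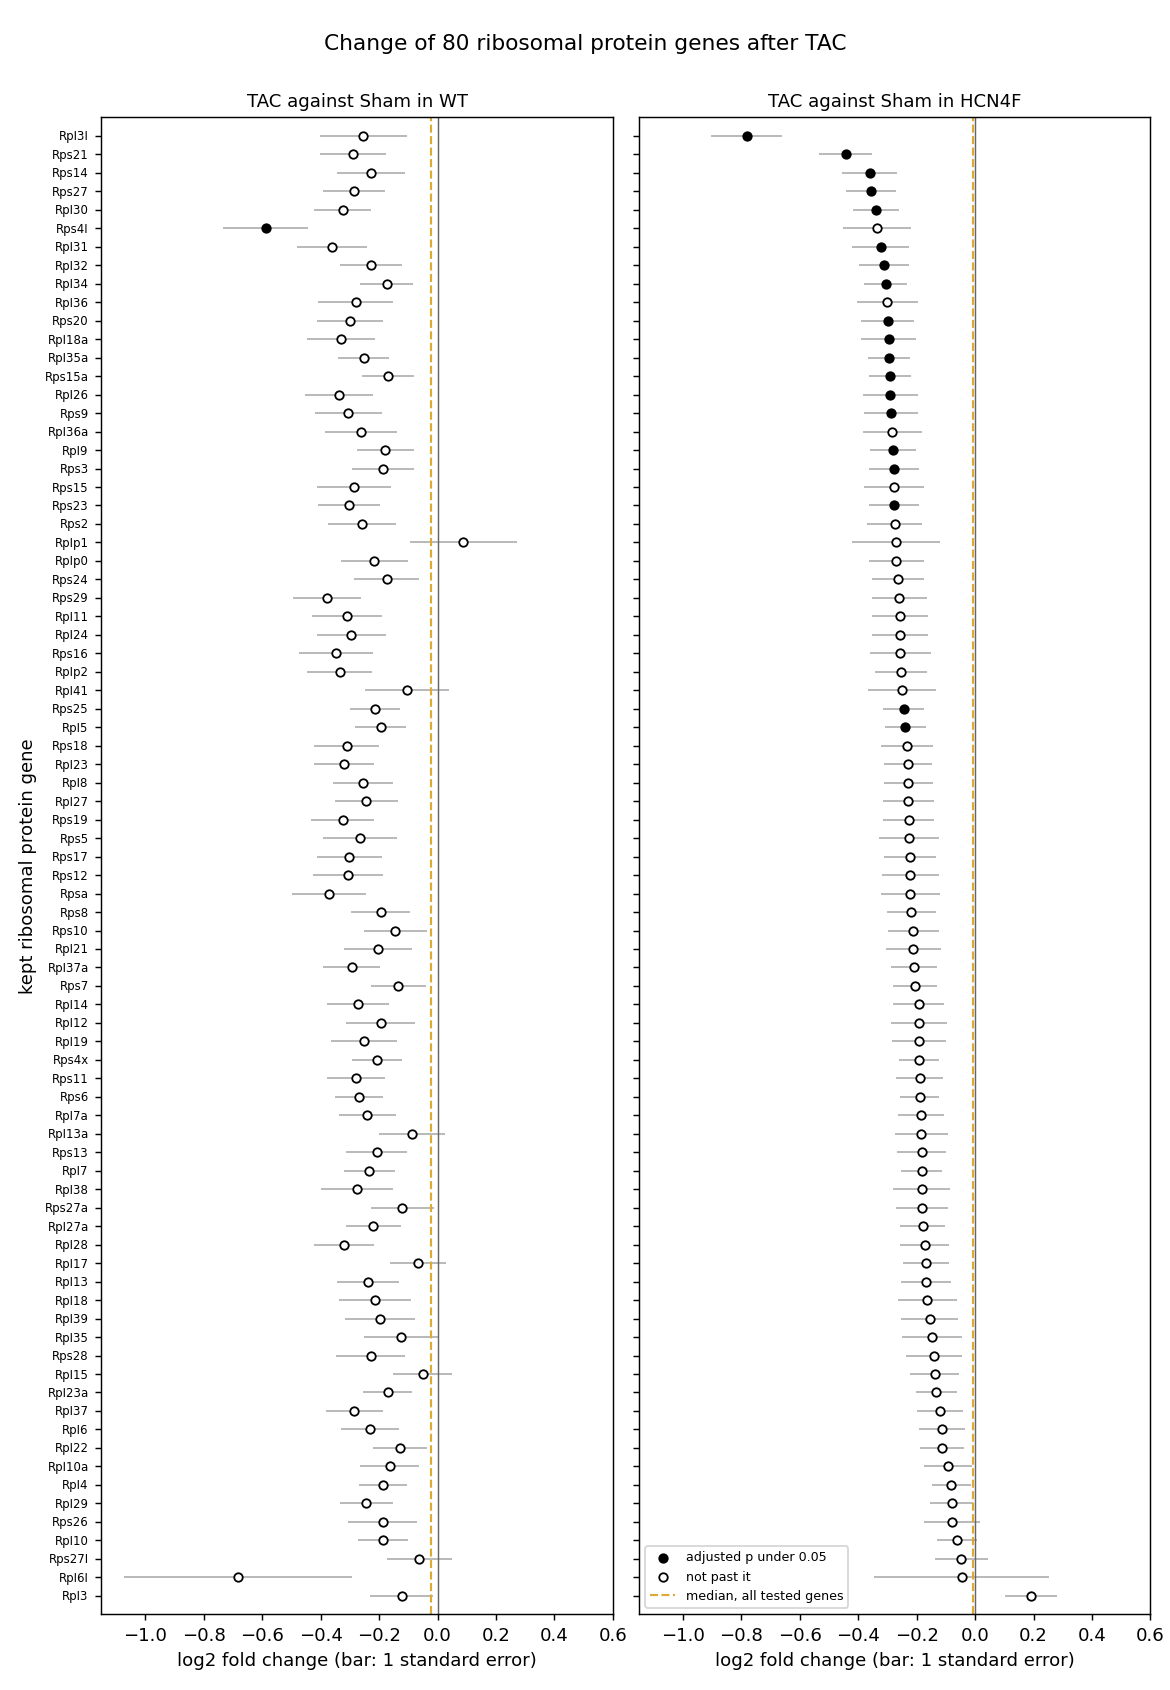
Log2 fold change (x axis) of each of the 80 kept ribosomal protein genes (y axis) after TAC, in WT hearts on the left and in HCN4F hearts on the right, with 1 SE. Filled points passed an adjusted p of 0.05 (edgeR), and the dashed line is the median of all tested genes. Nearly all points lie left of 0 in both panels, with Rpl3 and Rpl3l at opposite ends in HCN4F hearts.

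In HCN4F hearts the same comparison gave 19 of 80 members lower after TAC and 0 higher. The members that fell were Rpl3l and 18 others with log2 fold changes between -0.44 and -0.24, 10 of the 19 from the large and 9 from the small subunit. Over all tested genes 13.6% passed, 6.41% with a lower level. The log2 fold change was below 0 for 79 of 80 members, and the median was -0.22 for the members and -0.01 for all tested genes. At an unadjusted p under 0.05, 55 members were lower and 1, Rpl3, was higher, where 14.3% of all tested genes were lower. All HCN4F-TAC libraries lay below all HCN4F-Sham libraries for 11 members, against 7.16% of all tested genes. None of the 80 reached the study's threshold for the size of the change, which 2.75% of all tested genes did.

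The number of members that fell in HCN4F hearts depended on the libraries included. Without HCN4F-Sham replicate 3, 61 members fell (76.2%, against 13.8% of all genes past the test) and the median was -0.31, and without HCN4F-Sham replicate 1, 8 fell (10% against 13.6%) and the median was -0.17. The count was 10 without HCN4F-Sham replicate 2 (12.5% against 11.6% of all genes), 6 when only the HCN4F libraries were fitted (7.5% against 8.98%), and 24 with DESeq2 (30% against 15.8%). It was 9 to 12 without any 1 of the HCN4F-TAC libraries, where 8.73% to 15.6% of all genes passed. The share of members past the test was thus near or below that of all genes in several of these fits. Scaling by total counts instead of TMM left 73 of 80 members below 0, with a median of -0.13, and called 5 (6.25% against 15.5% of all genes), of which 4 were lower and Rpl3 was higher. Rpl3l, Rps21, Rps27 and Rpl30 passed under each of the 23 alternatives tried.

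The 4 largest falls after that of Rpl3l were those of Rps21, Rps14, Rps27 and Rpl30. Rps21, a small subunit protein, was at 107, 87.9, 74.3 and 96.1 CPM in HCN4F-Sham 1 to 4 and at 70.8, 67.7, 61.5 and 68.9 CPM in HCN4F-TAC replicates 1 to 4. Its log2 fold change was -0.44 (SE 0.09, adjusted p = 0.00439, edgeR). In WT hearts the value was -0.29 (SE 0.11, adjusted p = 0.144, edgeR). Every HCN4F-TAC library lay below every HCN4F-Sham library, and the lowest Sham value was again that of replicate 3.

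Rps14, which lies on the platform of the small subunit, was at 343, 310, 246 and 258 CPM in HCN4F-Sham and at 218, 234, 229 and 220 CPM in HCN4F-TAC, with a log2 fold change of -0.36 (SE 0.09, adjusted p = 0.0171, edgeR). Rps27, a zinc-binding protein of the small subunit, was at 144, 135, 105 and 119 CPM in HCN4F-Sham and at 98.5, 101, 99.1 and 94.1 CPM in HCN4F-TAC, with a log2 fold change of -0.36 (SE 0.09, adjusted p = 0.0111, edgeR). Rpl30, a large subunit protein, was at 144, 151, 115 and 141 CPM in HCN4F-Sham and at 111, 110, 109 and 106 CPM in HCN4F-TAC, with a log2 fold change of -0.34 (SE 0.08, adjusted p = 0.00875, edgeR). For these genes too the HCN4F groups did not overlap. Of the transcript of Rps27, 98.7% of 50-base stretches occur in another gene, against 26.4% for Rps21, so that reads of Rps27 could be split between genes. The call of Rps14 was lost with edgeR on HCN4F libraries alone (adjusted p = 0.0517) and with total-count scaling (adjusted p = 0.0566).

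**Figure D2:**
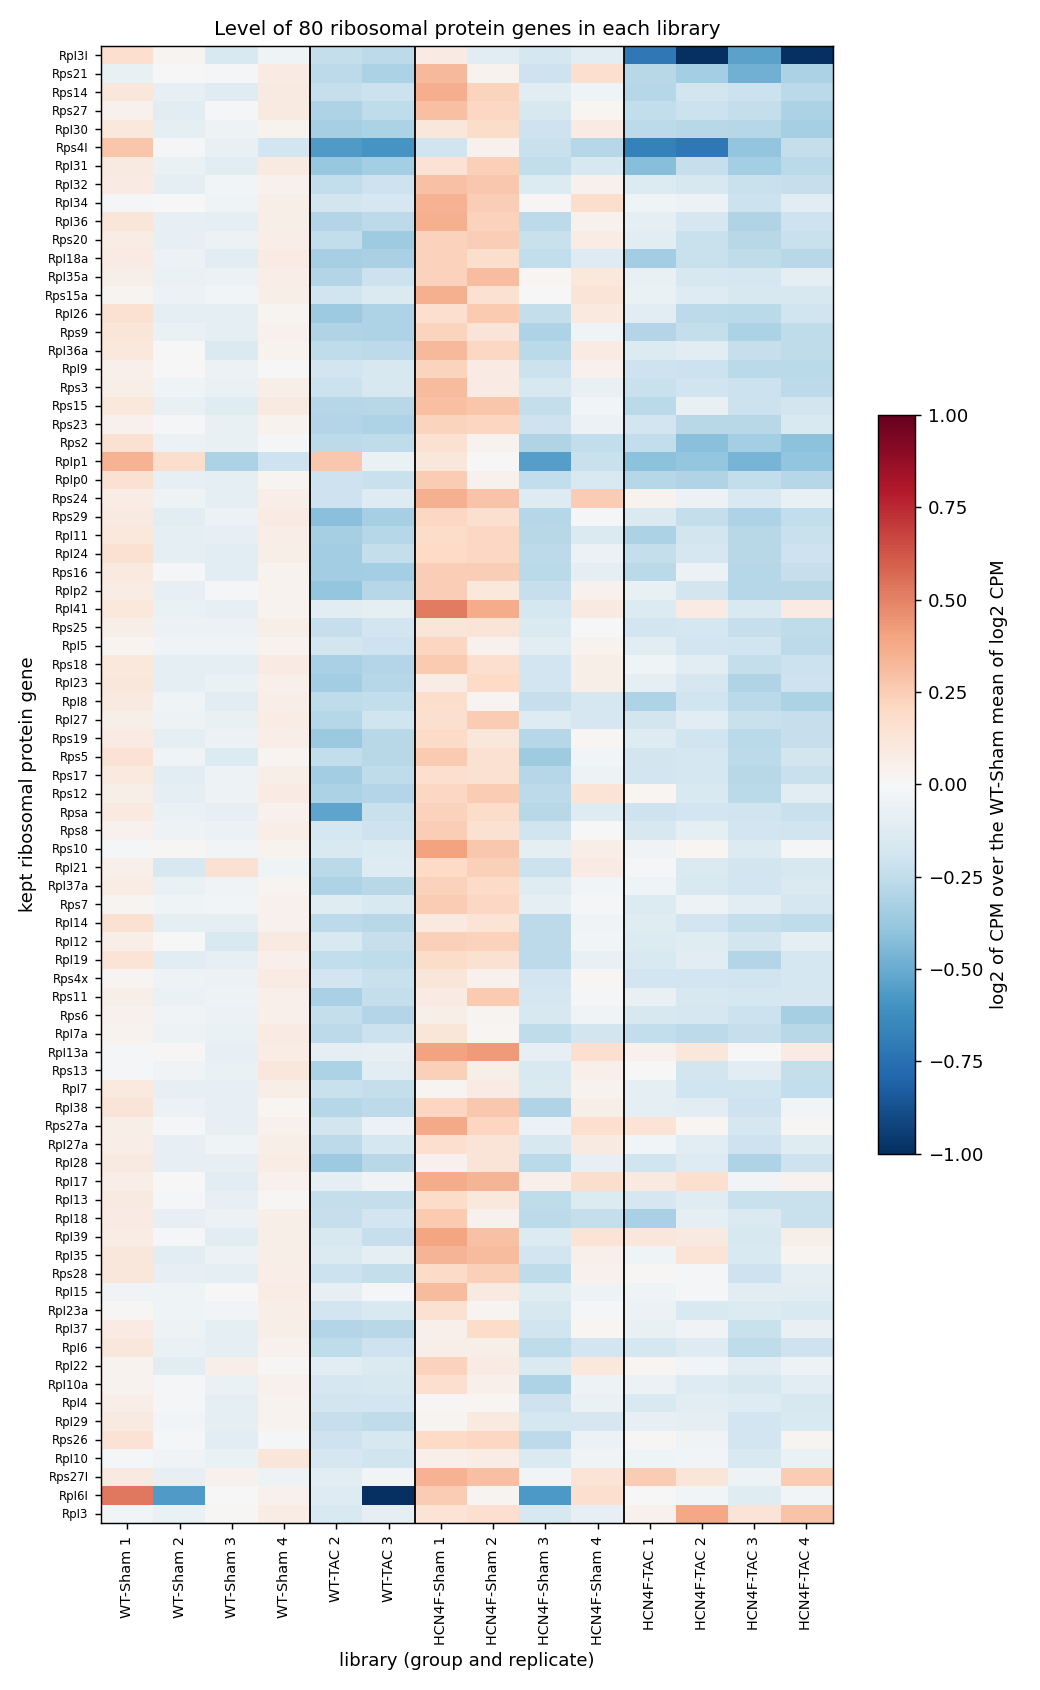
Level of the 80 kept members (rows, ordered by their change after TAC in HCN4F hearts) in each of the 14 libraries (columns), as log2 difference from the mean of the WT-Sham libraries, with values beyond 1 or -1 drawn in the end colours. Columns are nearly uniform in colour: HCN4F-Sham replicates 1 and 2 are above the WT-Sham mean for most members and HCN4F-Sham replicate 3 is below it. Rpl3l stands out within the HCN4F-TAC columns and Rps4l within the WT-TAC columns.

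The median difference of the 80 members from the WT-Sham mean describes each library with 1 value on the log2 scale. It was 0.08, -0.06, -0.07 and 0.06 in WT-Sham 1 to 4 and -0.25 and -0.23 in WT-TAC replicates 2 and 3. It was 0.22, 0.17, -0.21 and -0.01 in HCN4F-Sham 1 to 4 and -0.13, -0.15, -0.22 and -0.20 in HCN4F-TAC replicates 1 to 4. The TAC libraries were thus alike, the WT groups did not overlap, and HCN4F-Sham replicate 3 lay among the TAC libraries. The HCN4F-Sham libraries spanned a wider range than both TAC groups together.

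Other genes with short transcripts shifted in the same direction. Of 784 other tested protein-coding genes with a transcript under 1000 bases, 61 were lower and 5 higher after TAC in WT hearts, with a median log2 fold change of -0.24, and 156 were lower and 24 higher in HCN4F hearts, with a median of -0.15. For 12625 longer protein-coding genes the medians were 0.01 and 0.015. Among the 43 short genes whose level lay between the quartiles of the members, from 101 to 199 CPM, the median was -0.24 in WT and -0.19 in HCN4F hearts, and 2 and 17 of the 43 were lower. The median difference of the 784 short genes from WT-Sham was -0.17 in HCN4F-Sham replicate 3 and 0.08 in both HCN4F-Sham replicates 1 and 2. In HCN4F-Sham replicate 4 it was -0.10, where the members were at -0.01. The lower level was therefore not particular to ribosomal protein genes, and what part transcript length has in it was not tested.

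**Figure D3:**
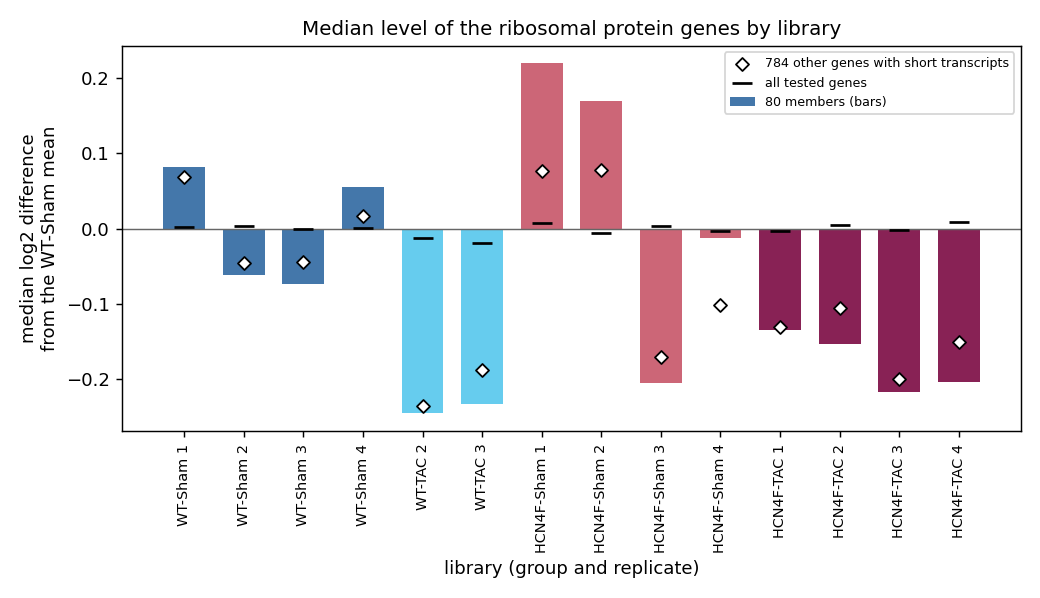
Median log2 difference from the WT-Sham mean (y axis) in each library (x axis), for the 80 members (bars, coloured by group), 784 other protein-coding genes with short transcripts (diamonds) and all tested genes (dashes). Bars and diamonds lie on the same side of 0 in every library, and HCN4F-Sham replicate 3 has a bar of -0.21.

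Both subunits gave similar medians. In WT hearts the median log2 fold change was -0.24 over the 48 large and -0.27 over the 32 small subunit members, and in HCN4F hearts -0.19 and -0.23. Members with little shared sequence gave similar values: the 13 members with under 30% of their 50-base stretches in another gene had a median of -0.20 in WT and -0.23 in HCN4F hearts, and 1 of the 13 fell in WT (7.69%, against 1.62% of all tested genes) and 4 in HCN4F hearts (30.8% against 6.41%). The member that fell in WT was the transcribed processed pseudogene Rps4l, and no protein-coding member passed there with edgeR. The other 67 members had medians of -0.24 and -0.22. In both genotypes 77 of 80 members lay within 0.2 of the members' median on the log2 scale.

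Rpl3l (ENSMUSG00000002500), the version of the protein specific to striated muscle, had the largest fall of all members in HCN4F hearts. The gene lies on GRCm38 at chr17:24727820-24736143 on the plus strand. It was at 287, 259, 229 and 247 CPM in WT-Sham 1 to 4 and at 216 and 213 CPM in WT-TAC replicates 2 and 3. It was at 270, 237, 226 and 236 CPM in HCN4F-Sham 1 to 4 and at 156, 111, 176 and 120 CPM in HCN4F-TAC replicates 1 to 4. The HCN4F-TAC libraries were lower than all other libraries, and the other groups lay close together.

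In HCN4F hearts Rpl3l fell by 0.78 on the log2 scale (SE 0.12, adjusted p = 0.000647, edgeR), to 0.582 of its Sham level. In WT hearts the log2 fold change was -0.25 (SE 0.15, adjusted p = 0.335, edgeR), close to the median of the members. Between HCN4F-TAC and WT-TAC it was -0.61 (SE 0.15, adjusted p = 0.106, edgeR). That value passed with DESeq2 (adjusted p = 0.0129), without a filter on low counts (adjusted p = 0.0100) and without HCN4F-TAC replicate 3 (adjusted p = 0.0054, log2 fold change -0.735, where 2.97% of all genes passed), and over all alternatives its adjusted p ranged from 0.0054 to 0.575. The genotype by surgery interaction was -0.53 on the log2 scale and did not pass (unadjusted p = 0.0130), so that a difference in the TAC response between genotypes is not shown.

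Rpl3 (ENSMUSG00000060036), the version that other tissues use, lies at chr15:80077791-80091868 on the minus strand. It was at 145, 141, 149 and 156 CPM in WT-Sham and at 133 and 139 CPM in WT-TAC. It was at 162, 166, 132 and 139 CPM in HCN4F-Sham and at 152, 193, 161 and 179 CPM in HCN4F-TAC. Rpl3 was the only member with a log2 fold change above 0 in HCN4F hearts, 0.19 (SE 0.09, adjusted p = 0.161, edgeR), and the HCN4F groups overlapped. With scaling by total counts the value was 0.29 and passed (adjusted p = 0.0439). In WT hearts it was -0.12 (SE 0.11, adjusted p = 0.538, edgeR) and between HCN4F-TAC and WT-TAC 0.34 (SE 0.11, adjusted p = 0.216, edgeR).

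As a share of both genes per transcript length, Rpl3l made up 66%, 64.4%, 60.2% and 61.0% in WT-Sham and 61.5% and 60.2% in WT-TAC. The share was 62.0%, 58.3%, 62.7% and 62.4% in HCN4F-Sham and 50.2%, 36.2%, 51.8% and 39.7% in HCN4F-TAC. Rpl3l therefore exceeded Rpl3 in all Sham and WT-TAC libraries, and 2 of the 4 HCN4F-TAC libraries held more Rpl3 than Rpl3l.

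Rpl3 and Rpl3l share few long identical stretches. The transcripts are 77.1% identical over 1172 aligned bases, and the longest stretch without a difference has 22 bases, in capitals here within coding positions 125 to 186 of each gene, counted from 1 at the start codon.
Rpl3: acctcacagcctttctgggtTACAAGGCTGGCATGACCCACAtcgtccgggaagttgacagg
Rpl3l: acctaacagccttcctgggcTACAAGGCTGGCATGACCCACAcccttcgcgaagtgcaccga
No 50-base stretch of Rpl3l occurs in another annotated transcript (0%), whereas 85.6% of those of Rpl3 do, so the level of Rpl3 depends more on how reads with several matches were counted.

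Markers of cell types are given beside Rpl3l. After TAC 1.62% of all tested genes fell in WT, and 6.41% fell and 7.2% rose in HCN4F hearts. The 12 cardiomyocyte markers summed to 106900 to 108200 CPM in WT-Sham and 101800 to 102600 in WT-TAC. They summed to 97000 to 106200 CPM in HCN4F-Sham and 81250 to 91860 in HCN4F-TAC. These sums did not overlap between Sham and TAC in either genotype. Of the 12, 4 fell (33.3%) and 1 rose (8.33%) in HCN4F hearts, and 2 fell in WT (16.7%). The 10 fibroblast markers summed to 2004 to 2115 CPM in WT-Sham and 1655 to 2034 in WT-TAC. They summed to 1765 to 2314 CPM in HCN4F-Sham and 2035 to 2822 in HCN4F-TAC. The Sham and TAC sums of fibroblast markers overlapped in both genotypes. Of the 10, 5 rose (50%) and 0 fell in HCN4F hearts, and 1 fell in WT (10%). The 9 macrophage markers summed to 221 to 270 CPM in WT-Sham, 217 to 229 in WT-TAC, 233 to 312 in HCN4F-Sham and 224 to 359 in HCN4F-TAC, where the HCN4F groups overlapped and 0 of the 9 passed in either TAC comparison with edgeR. Reads of the mitochondrial genome made up 19.6% to 23.1% in WT-Sham, 18.4% to 20.0% in WT-TAC, 17.1% to 21.4% in HCN4F-Sham and 13.9% to 18.6% in HCN4F-TAC. HCN4F-TAC replicate 2, with the lowest Rpl3l level, also had the lowest mitochondrial share and the highest sums of atrial markers (66.3 CPM, against 19.9 to 39.3 in the other libraries) and erythroid markers (365 CPM). Without that library Rpl3l fell by 0.685 on the log2 scale in HCN4F hearts (adjusted p = 0.00187, edgeR). In whole tissue, fewer cells of a type and less RNA per cell cannot be told apart, and the part of cell types and mitochondrial reads in the Rpl3l result was not tested.

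**Figure D4:**
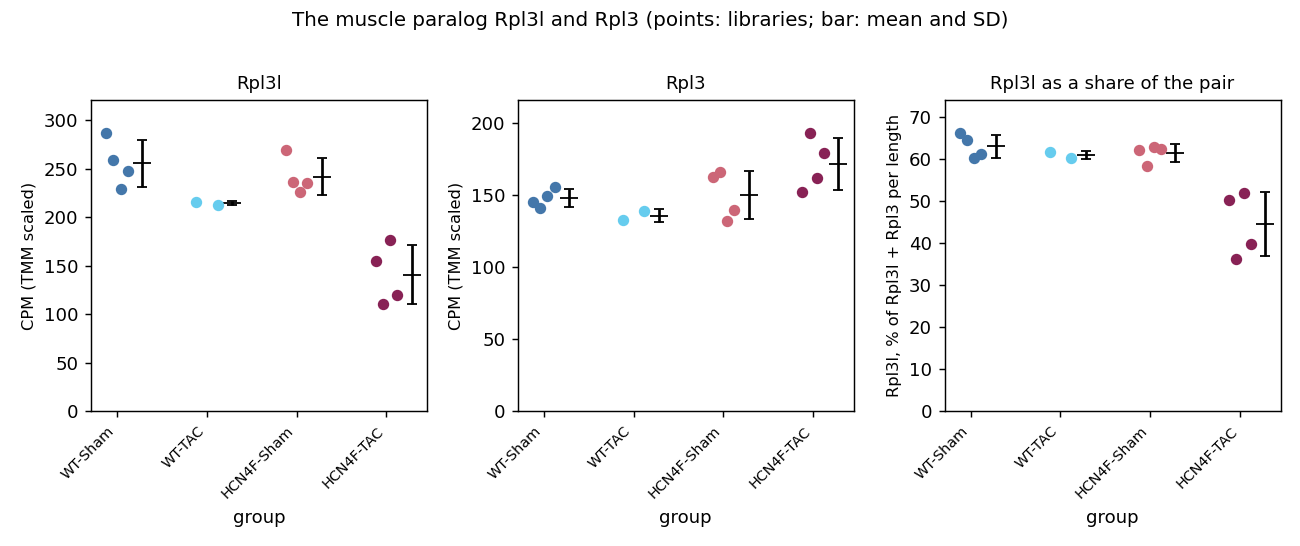
Level of Rpl3l (left) and Rpl3 (middle) in CPM and Rpl3l as a percentage of both genes per transcript length (right) in the 4 groups, with a point for each library and bars for mean and SD. The HCN4F-TAC libraries lie between 111 and 176 CPM of Rpl3l, below all other libraries, while their Rpl3 values of 152 to 193 CPM overlap with those of HCN4F-Sham.

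The other pairs of paralogs were as follows. Rps27l, which shares 79.3% of aligned bases with Rps27, had log2 fold changes of -0.06 in WT and -0.05 in HCN4F hearts (adjusted p = 0.780 and 0.775, edgeR), beside -0.29 and -0.36 for Rps27. Rps4l was at 18, 17.6, 21.9 and 24.4 CPM in HCN4F-TAC and at 25.1, 29.8, 24.7 and 23.7 CPM in HCN4F-Sham, where the groups overlapped (log2 fold change -0.33, adjusted p = 0.067, edgeR). Its functional relative Rps4x had -0.21 and -0.19 (adjusted p = 0.166 and 0.0787, edgeR).

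Rpl22l1, a paralog of Rpl22 outside the naming rule, fell in HCN4F hearts by 0.57 on the log2 scale (SE 0.12, adjusted p = 0.00467, edgeR), from a mean of 13.2 ± 1.66 CPM (SD, n = 4) to 8.89 ± 0.684 CPM (SD, n = 4), and had -0.44 in WT (adjusted p = 0.0949, edgeR). Rpl22 itself had -0.13 and -0.11 (adjusted p = 0.440 and 0.346, edgeR). Rpl36a and Rpl36al had -0.26 and -0.26 in WT and -0.28 and -0.21 in HCN4F hearts, and none of these values passed (adjusted p from 0.0621 to 0.225, edgeR). Rpl7 and Rpl7l1 had -0.23 and -0.10 in WT and -0.18 and 0.12 in HCN4F hearts. Rpl10 had -0.19 in WT and -0.06 in HCN4F hearts, and Rpl39 had -0.20 and -0.16, while their paralogs Rpl10l and Rpl39l were among the genes left out for want of reads. For Rpl10l, 0 reads allow up to 3 reads per library, or 0.0852 to 0.134 CPM before TMM scaling, a limit that covers counting error only.

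The genes of the P stalk, the arm of the large subunit that binds elongation factors, did not pass between any 2 groups with edgeR, and Rplp2 was among the members that passed the test for any difference over the 4 groups, described later (adjusted p = 0.0352). Rplp0, its base, had log2 fold changes of -0.22 in WT and -0.27 in HCN4F hearts (adjusted p = 0.279 and 0.0631, edgeR), and Rplp2 had -0.34 and -0.25 (adjusted p = 0.0885 and 0.0669, edgeR). Of the 23 alternatives, Rplp0 passed under 3 in HCN4F hearts, and Rplp2 under 2 in WT and 1 in HCN4F hearts. Rplp1 was the only member with a value above 0 in WT, 0.09 (SE 0.18, adjusted p = 0.823, edgeR). It was at 453, 403, 286 and 309 CPM in WT-Sham, 431 and 341 CPM in WT-TAC, 385, 357, 243 and 305 CPM in HCN4F-Sham and 269, 272, 258 and 271 CPM in HCN4F-TAC. The WT groups overlapped, and Rplp1 had a replicate SD of 0.25 on the log2 scale, the highest of the members. Its sign in WT turned without WT-Sham replicate 3 (-0.01) or WT-TAC replicate 2 (-0.09).

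No member passed the test between genotypes in the edgeR fit of all 14 libraries with the low-count filter. In Sham hearts 0 of 80 passed with edgeR and 0 with DESeq2, where 0.471% of all tested genes passed with edgeR and 2.37% with DESeq2, and 7 members had an unadjusted p under 0.05, against 15.2% of all tested genes. The median log2 fold change was 0.05, with 60 of 80 members above 0, and it was -0.01 without HCN4F-Sham replicate 1 and -0.003 without replicate 2. Over all 23 alternatives the median ranged from -0.012 to 0.118. Without replicate 1 the share of all genes past the test was 3.72%, with 0 members. The highest values were those of Rpl13a (0.24, adjusted p = 0.225, edgeR), Rpl17 (0.24, adjusted p = 0.162) and Rpl41 (0.22, adjusted p = 0.374). Rpl13a was at 127, 129, 121 and 135 CPM in WT-Sham and at 168, 172, 121 and 143 CPM in HCN4F-Sham, so that the difference lay in replicates 1, 2 and 4. The lowest values were those of Rps4l (-0.17), Rplp1 (-0.17) and Rpl3l (-0.08).

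After TAC 0 of 80 members passed the test of HCN4F against WT hearts with edgeR and 1, Rpl3l, with DESeq2, where 0.111% of all tested genes passed with edgeR and 1.49% with DESeq2, so that 1 of 80 (1.25%) is near the latter share. Rpl3l also passed with edgeR without a low-count filter (1.25% of members, against 0.49% of all genes) and without HCN4F-TAC replicate 3 (1.25% against 2.97%). At an unadjusted p under 0.05 there were 3 members, against 12.5% of all tested genes. The median was 0.08, with 69 of 80 members above 0. After Rpl3l the lowest values were those of Rplp1 (-0.53, SE 0.18, adjusted p = 0.246, edgeR) and Rps2 (-0.10, adjusted p = 0.781), and, apart from the pseudogene Rpl6l with 8 to 21 reads per library, the highest were Rpl3, Rpl39 (0.22, adjusted p = 0.467) and Rps27l (0.21, adjusted p = 0.450). The comparison sets 4 libraries against 2.

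The interaction between genotype and surgery passed for 0 members with edgeR and 0 with DESeq2, and for 0.0% of all tested genes with edgeR and 0.262% with DESeq2. Without HCN4F-TAC replicate 3 the edgeR share of all genes was 0.51%, and the count of members remained 0. At an unadjusted p under 0.05 there were 2 members, Rpl3l and Rpl3, against 9.27% of all tested genes. A test for any difference over the 4 groups passed for 27 of 80 members and for 20.5% of all tested genes. That count was 65 without HCN4F-Sham replicate 3, 16 without HCN4F-Sham replicate 2 or HCN4F-TAC replicate 1, and 17, 13 and 8 without WT-Sham replicates 2, 1 and 4. It was 11 and 10 without HCN4F-TAC replicates 2 and 4, and 8 and 9 without WT-TAC replicates 2 and 3. The share of all genes was 21.5% without HCN4F-Sham replicate 3 and 14.6% to 20.8% without each of the other libraries named. The share of members lay below that of all genes without WT-Sham replicate 4 (10% against 14.6%), WT-TAC replicate 2 (10% against 17.3%) or 3 (11.2% against 16.8%), HCN4F-TAC replicate 2 (13.8% against 15.9%) or 4 (12.5% against 15.5%), and was near it without HCN4F-Sham replicate 2. The comparisons between genotypes use the same libraries as those of TAC against Sham and are not independent of them.

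The other genes of the translation machinery are given next. Of all tested genes, 1.62% fell and 2.92% rose in WT hearts, and 6.41% fell and 7.2% rose in HCN4F hearts. The counts are to be read against these shares. Among 7 ribosomal protein genes outside the naming rule, none passed in WT and 2 fell in HCN4F hearts, Rpl22l1 among them. Their median log2 fold changes were -0.26 in WT and -0.23 in HCN4F hearts. Among 78 genes for proteins of the mitochondrial ribosome, which translates the mitochondrial genome, 6 fell in WT (7.69%) and 12 in HCN4F hearts (15.4%) and none rose, with medians of -0.19 and -0.14. The largest falls in WT were those of Mrpl23 (-0.46), Mrpl14 (-0.40) and Mrps21 (-0.36), and in HCN4F hearts those of Mrpl14 (-0.46), Mrpl23 (-0.45) and Mrps35 (-0.42). Of 44 tested ribosomal protein pseudogenes, 0 passed in WT and 1, Rpl17-ps10, fell in HCN4F hearts (-0.57, adjusted p = 0.0418, edgeR), with medians of -0.10 and -0.19.

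The lists of translation factors had medians nearer 0. Of 8 elongation factor genes none passed in WT and Eef1d, a nucleotide exchange factor, fell in HCN4F hearts (-0.31, adjusted p = 0.0264, edgeR), with medians of -0.10 and -0.07. Of 20 other genes known for a TOP motif none passed in WT and 3 fell in HCN4F hearts (Eef1d, Eif3f and Hnrnpa1), with medians of -0.13 and -0.10. Of 35 initiation factor genes none passed in WT. In HCN4F hearts 3 fell (Eif1, Eif3f and Eif3m), and 2 rose (5.71%, against 7.2% of all tested genes). These 2 were the helicase Eif4a1 (0.32, adjusted p = 0.00579, edgeR) and the scaffold Eif4g1 (0.23, adjusted p = 0.0362). The medians of the initiation factors were -0.004 in WT and 0.005 in HCN4F hearts.

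Genes that regulate or build ribosomes included some that rose. Of 18 tested genes of mTORC1 and translation control, 2 rose in WT (11.1%, against 2.92% of all tested genes). They were the kinase gene Mtor (0.34, adjusted p = 0.0338, edgeR) and its inhibitor Tsc2 (0.32, adjusted p = 0.0406). In HCN4F hearts 1 rose (5.56%, against 7.2%) and 1 fell (5.56%, against 6.41%). These were the S6 kinase gene Rps6kb1 (0.24, adjusted p = 0.0399) and Deptor, an mTOR-binding inhibitor (-0.45, adjusted p = 0.00383). Of 50 genes of RNA polymerase I and ribosome biogenesis, 3 rose in WT (6%, against 2.92% of all tested genes) and 1 fell. Those that rose were Myc, Rrp12 and Wdr75, and Nle1 fell. In HCN4F hearts 9 rose (18%, against 7.2%) and 0 fell. The median there was 0.09, and Polr1e (0.51) and Grwd1 (0.36) were among those with the largest rise. Rrp12, needed for the maturation of both subunits, rose by 0.61 on the log2 scale in WT (adjusted p = 0.00567, edgeR) and by 0.78 in HCN4F hearts (adjusted p = 3.41e-05).

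**Figure D5:**
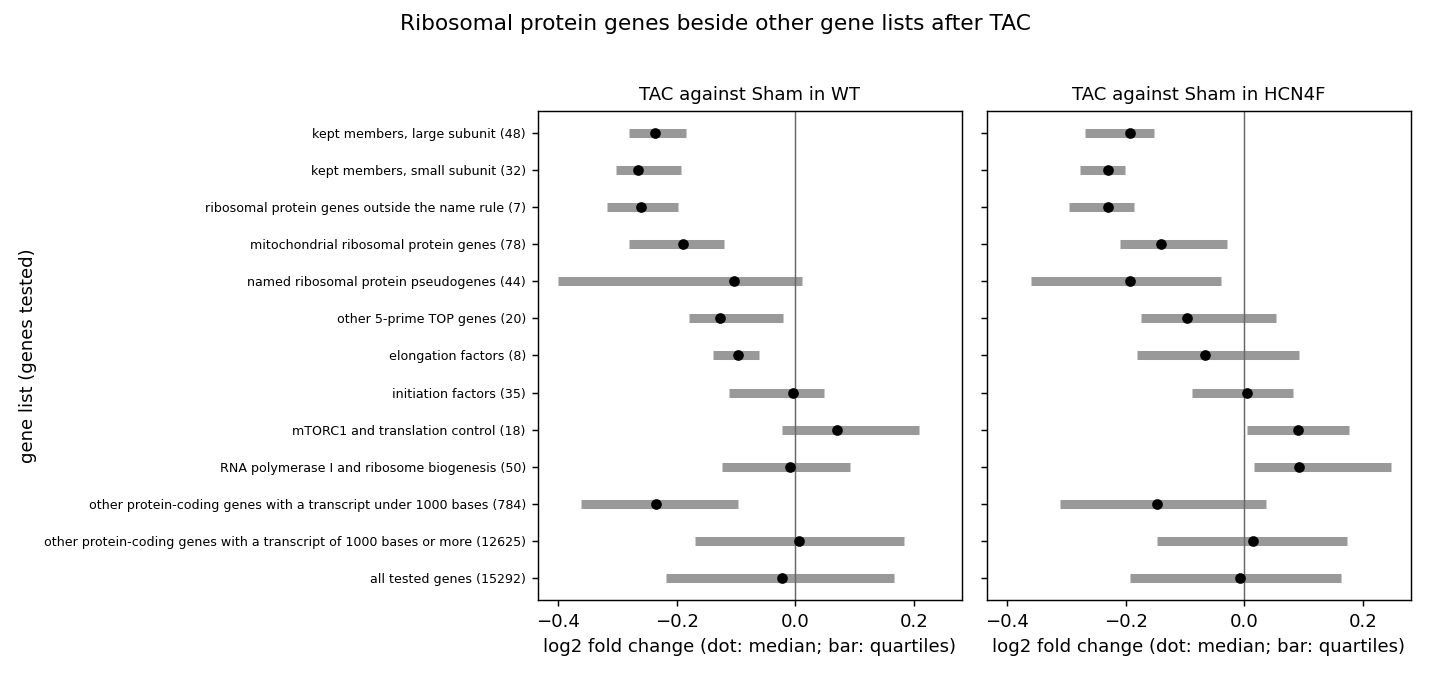
Median (dot) and quartiles (bar) of the log2 fold change after TAC (x axis) for gene lists (y axis, number of tested genes in parentheses), in WT hearts on the left and HCN4F hearts on the right. The subunits of the cytosolic ribosome lie between -0.27 and -0.19, near other genes with short transcripts (-0.24 and -0.15), while initiation factors and longer genes lie near 0.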

How the data were processed

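RNA from left ventricular tissue was sequenced as polyadenylated mRNA on an Illumina platform. The authors deposited whole-number counts of reads per gene for all samples in 1 table, on the genome build GRCm38 per the submitters' processing notes. The aligner, the counter, the use of strand and the read length are not given in the sources used here. Samples were grouped by genotype and surgery from the labels, with 14 libraries used, and 2 columns of the table that matched no sample were left unused. The study describes its samples as biological replicates, and p-values measure the spread between these samples. Counts were fitted for all 4 groups in 1 model with edgeR 4.0.16 (R 4.3.3; TMM scaling, filterByExpr, robust quasi-likelihood test), and p-values were adjusted by Benjamini-Hochberg over 15292 tested genes. CPM values used TMM library sizes, and CPM per kilobase used 1 transcript per gene. The precision is set by 22309914 to 35210939 counts per library.

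Members and gene lists were chosen with earlier results of these data known. Genes were named by rule: Rpl3l, Rpl3, the other paralog pairs, the P stalk genes and Rpsa, members left out, up to 5 members past the test with the largest change in each direction of a comparison (where fewer than 3 passed, the 3 with the most extreme value and a mean CPM of at least 1), the 3 highest and 3 lowest levels, and up to 3 genes past the test from each other list and direction. Alternatives were DESeq2 1.42.0, other scalings and filters, the compared groups alone, the replicate number as a block, and each library left out. Promoters came from RefSeq on GRCm38.p6 and transcripts from GENCODE M21, which held 99.47% of the gene identifiers. The fits were also run on simulated counts. The planted changes were larger than those of the members and genes were drawn independently, so that run does not bear on changes of this size. A result of 1 of the listed genes is not reported here.

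Marker lists not described with Rpl3l gave these counts of genes past the test. Of all tested genes, 4.54% passed in WT and 13.6% in HCN4F hearts. Endothelial, smooth muscle and pericyte, and erythroid markers had 0 in both TAC comparisons. Atrial markers had 1 lower in WT, and 1 higher and 2 lower in HCN4F hearts. Lymphocyte markers had 1 higher, skeletal muscle markers 1 higher and 1 lower, and adipocyte markers 1 lower, all in HCN4F hearts.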

Additional observations from a re-analysis of the deposited data

Results flagged for a closer look

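Among 87 sets of 4 replicate values examined, 1 value stood far from the others. Rpl3l made up 58.3% of Rpl3l and Rpl3 per transcript length in HCN4F-Sham replicate 2, where the other HCN4F-Sham libraries lay between 62.0% and 62.7%. The gap took 0.841 of the range, above Dixon's 95% critical value for 4 samples. Chance alone flags about 5% of such sets.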

How the results depend on the processing

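In WT hearts 1 member passed after TAC, and 31 with the compared groups alone, 2 without a low-count filter, 0 with a replicate block, 6 with DESeq2 and 0 to 11 with a library left out. Over all genes the WT count moved from 694 to 2009, 871, 225 and 1224 under the first 4 of these. In HCN4F hearts 19 passed, and 6 with the compared groups alone, 5 with total counts and 8 to 61 with a library left out, where the 61 included all 19; over all genes 2081 passed, and 1287 and 2376 under the first 2 of these. Between genotypes after TAC 0 passed, and 1 without a low-count filter, 1 with DESeq2 and 0 to 1 with a library left out. For any difference 27 passed, and 8 with total counts (10% against 22.8% of all genes), 12 with a replicate block (15% against 17.6%), 43 with DESeq2 (53.8% against 26.4%) and 8 to 65 with a library left out. Rpl3l between genotypes after TAC (-0.61) passed at -0.62 without a filter and -0.62 with DESeq2, and lay between -0.735 and -0.521 with a library left out. Rpl3 after TAC in HCN4F hearts passed with total counts at 0.285. Rpl3 between genotypes in Sham hearts (0.02) lay between -0.03 and 0.08 with a library left out.

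With total counts 6 members in HCN4F hearts turned above 0: Rpl10 (0.029), Rpl6l (0.044), Rps27l (0.043), Rpl29 (0.01), Rpl4 (0.01) and Rps26 (0.01). With a library left out, Rpl6l ranged from -0.206 to 0.044 and was above 0 without HCN4F-Sham replicate 1 or 4, and Rps27l 0.01 (HCN4F-Sham replicate 1) and 0.015 (HCN4F-TAC replicate 3). Rplp1 in WT hearts ranged from -0.089 to 0.248 with a library left out. The cause of these moves was not tested. The median of the members stayed below 0 in both TAC comparisons under all 23 alternatives (-0.27 to -0.19 in WT, -0.31 to -0.13 in HCN4F).

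Correlations of deviations between same-numbered samples lay between -0.12 and 0.159. The labels do not say what the replicate numbers stand for. Differently numbered samples were not compared, so these values do not settle whether samples were paired. With the replicate block 22 members passed in HCN4F hearts (27.5% against 12.9%). WT-TAC has 2 libraries, which limits each comparison with that group.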
